A study of Mus musculus with 5 samples.

Results

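Among the entries listed as endogenous small interfering RNAs (endo-siRNAs), 4985 were led by spermatogonia, a germ cell of the mouse testis. An entry was taken when it had 100 or more reads over the 5 libraries, a name without chrUn, and a spermatogonial value of 60% or more of the sum of 4 values. These values were primordial germ cells, spermatogonia, spermatozoa, and the mean of oocyte and zygote, each in RPM, reads per 1000000 endo-siRNA reads of the library. The members were 4985 of 37713 entries that met the first 2 criteria, or 13.2%, and 212905 entries were named in at least 1 library. The members were thus chosen by their read levels across the cell types, which are given below as a description and carry no test. Of the other entries, 18721 were led in the same way by oocyte and zygote, 1621 by spermatozoa, 1388 by primordial germ cells and 10998 by none.

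Endo-siRNAs are products of Dicer, which processes long double strands of RNA such as those formed by inverted repeats, overlapping transcripts, or a gene paired with an antisense pseudogene copy. They are loaded onto Argonaute proteins and are best known in mouse oocytes, where they act on transposon and messenger RNA, and small RNAs of this kind have also been described in the testis. Spermatogonia are the mitotic germ cells of the testis from which meiotic cells and later spermatozoa arise.

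The study held 1 library for each of 5 cell types, so no difference between them has a replicate check. Spermatogonia came from testes of CD-1 mice at 8.5 days after birth, left in suspension after somatic cells had settled and adhered, and primordial germ cells from male CD-1 gonads at 13.5 days of gestation, bound by anti-CD15 beads. Spermatozoa were from the cauda epididymis and vas deferens of mature CD-1 males and passed a Percoll gradient and a hypo-osmotic step. Metaphase II oocytes (15210 cells) were of C57BL/6 females, and zygotes (15416 cells, 15 to 18 hours after fertilization) of such females and DBA/6J males. Strain and way of isolation therefore differ between the male and the egg-stage libraries and cannot be told apart from cell type. Endo-siRNA reads numbered 3427374 in spermatogonia, 1216678 in primordial germ cells and 1370190 in spermatozoa, against 25968584 in oocytes and 30760735 in zygotes. The entry names give neither sequence, gene, repeat nor position, so the members are named here by their entry number.

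Reads of miRNAs listed as markers of other cells were found in the spermatogonial library. The list of smooth muscle and peritubular cells summed to 233110 RPM of miRNA reads, almost all of it miR-143-3p. It stood at 9261 in primordial germ cells, 230783 in spermatozoa, 26563 in oocytes and 20992 in zygotes. The endothelial list stood at 9053, against 96.7 to 1051 in the other 4 libraries. The gonadal soma list, miR-202-5p and miR-202-3p, was at 14981, against 5723 in oocytes, 2789 in zygotes, 1734 in primordial germ cells and 103 in spermatozoa. Its reads were not shown to come from somatic cells. The early germ cell list was at 1178, with miR-302b-3p at 0 reads. It stood at 25348 in primordial germ cells, 37.8 in spermatozoa, 3751 in oocytes and 8482 in zygotes. The late spermatogenesis list was at 924, against 235991 in spermatozoa, 3197 in primordial germ cells, 8291 in oocytes and 5431 in zygotes. The erythroid list was at 1774, against 18886 in spermatozoa and 188 to 249 in primordial germ cells, oocytes and zygotes. The leukocyte list, with 3 of its 5 miRNAs found, was at 106. It stood at 53.5 in primordial germ cells and 598 to 1564 in spermatozoa, oocytes and zygotes. In oocytes and zygotes almost all of it was miR-155-5p (1384 and 1554, against 40.7 in spermatogonia). The other members went the other way there. In spermatogonia, oocytes and zygotes miR-223-3p was at 16.7, 9.45 and 8.59, and miR-150-5p at 48.5, 0.995 and 0.859. The epithelial list was lowest in spermatogonia, at 1071 against 1462 to 22788.5 in the other 4 libraries. Of the 33 listed miRNAs 29 were in the tables, and 28 of these had reads in spermatogonia. The part of any such other cells in the endo-siRNA levels was not tested.

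The members took 49.98% of the spermatogonial endo-siRNA reads, with an exact 95% interval of 49.92% to 50.03% that covers counting error only. In the other libraries they took 5.24% (primordial germ cells), 1.19% (spermatozoa), 5.07% (oocyte) and 5.52% (zygote). Measured against the reads of all 4 reported classes together (miRNA, snoRNA, piRNA and endo-siRNA), the gap was smaller. The members then made up 6.49% of the spermatogonial library, 3.04% of the oocyte and 3.92% of the zygote library, 0.240% of the primordial germ cell library and 0.0749% of the spermatozoal library. The endo-siRNA class itself was 12.99% of the reads in spermatogonia but 71.1% in the zygote.

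**Figure D1:**
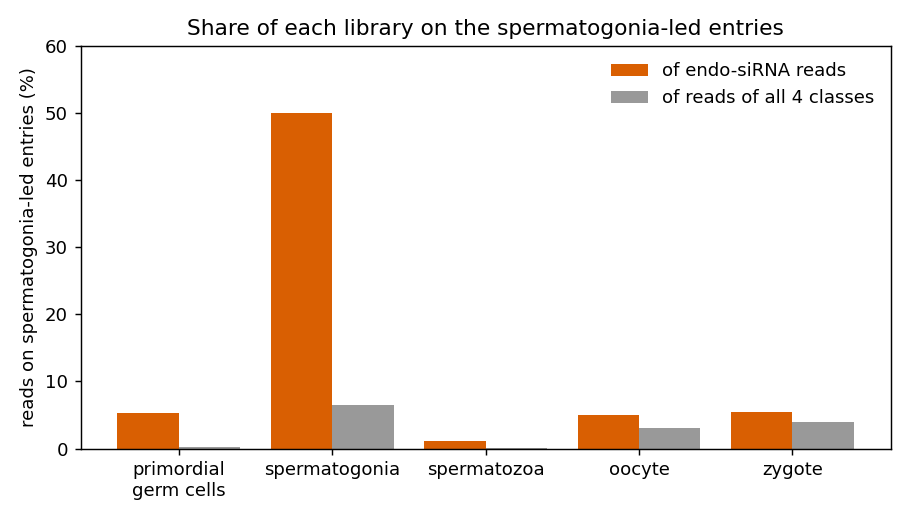
Reads on the 4985 members as a percentage of the endo-siRNA reads (orange) and of the reads of all 4 classes (grey) in each library, 1 library per bar pair. The spermatogonial bars stand at 49.98% and 6.49%, and the zygote bars at 5.52% and 3.92%.

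The lead of the members in spermatogonia within the endo-siRNA class is set by the rule. It held only in part for the whole reported library. Scaled to the reads of all 4 classes, 3070 members (61.6%) were highest in spermatogonia and 1915 (38.4%) in the mean of oocyte and zygote. With that scaling 2745 entries met the rule, 2480 of them members here. With the normalised column as deposited 1629 met it, of which 1566 are members here. In unscaled reads, 2321 members had most reads in spermatogonia, 1949 in the zygote and 715 in the oocyte, and none in the other 2 libraries.

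The spermatogonial share of the sum ran over the whole permitted range, with a median of 77.9% and quartiles of 67.9% and 89.3%. It was 70% or more in 3465 members, 80% or more in 2261, 90% or more in 1168, 95% or more in 597 and 99% or more in 105. There was no gap at the threshold: 918 entries lay between 55% and 60%, and 829 between 60% and 65%. Just inside were mmur001488219 at 60.005%, mmur001195466 at 60.006% and mmur001013131 at 60.013%. Just outside were mmur001226281 and mmur001110035, both at 59.996%, and mmur001432655 at 59.985%. Of the 3 inside, the first had spermatozoa second and the other two the mean of oocyte and zygote. The entry mmur001488219 had 53.0 RPM in spermatogonia and 33.5 in spermatozoa, mmur001195466 had 61.6 RPM and 54.8 in the zygote, and mmur001013131 had 20.4 RPM with 5.77 to 8.26 in spermatozoa, oocyte and zygote.

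**Figure D2:**
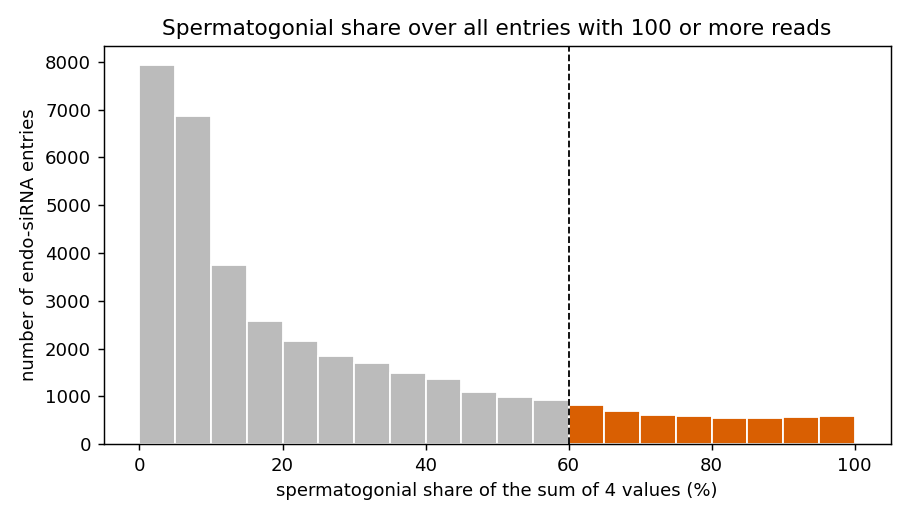
Number of entries in each 5-point step of the spermatogonial share of the 4 values, over the 37713 entries that met the read minimum, with members in orange right of the dashed line at 60%. The counts fall smoothly through the threshold, from 918 to 829, and the last step, 95% to 100%, holds 597.

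Levels in spermatogonia were uneven among members. The median was 32.6 RPM (quartiles 14.1 and 75.8), against 2.31 RPM over all 37713 entries. In reads the members ran from 8.67 to 29769, with 299 at 1000 reads or more and 2244 under 100. The 12 highest held 13.4% of the members' spermatogonial reads and the 256 highest held 50%. Of the 4985 members, 1834 reached the minimum of 100 reads only with their spermatogonial reads, and 3151 had 100 or more outside spermatogonia.

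The 12 members with most spermatogonial reads fell into 3 kinds of profile. The first kind was far lower in the other 4 libraries than in spermatogonia. The entry mmur001009920, the highest of all, had 8686 RPM in spermatogonia, 274 in primordial germ cells, 7.30 in spermatozoa, 76.7 in oocytes and 58.2 in zygotes. The spermatogonial value was 31.7-fold that of primordial germ cells, the next highest (exact 95% interval 28.4 to 35.3). The entry mmur001454266 stood at 3933, 101, 12.98, 8.54 and 13.4 RPM in the same order of libraries, a 38.8-fold difference from primordial germ cells [32.6 to 46.8]. Both had 96% or more of the sum in spermatogonia.

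Of the same kind were mmur000598990 and mmur000998533, whose values were close to each other although their numbers are far apart. The first had 3790 RPM in spermatogonia, 111 in primordial germ cells, 0 in spermatozoa, 5.82 in oocytes and 4.60 in zygotes. The second had 3665, 109, 0, 4.99 and 3.90 RPM. With 3 reads (2.19 RPM) put in place of the 0 reads in spermatozoa, spermatogonia were 1731-fold and 1674-fold higher. The exact 95% intervals of the ratios to 0 reads began at 1407 and 1361.

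The second kind was also abundant in the egg-stage libraries. It comprised mmur000681032 to mmur000681036, which are 5 consecutive numbers, and mmur000190619. The entry mmur000681036 had 7431 RPM in spermatogonia, 489 in primordial germ cells, 5.52 in spermatozoa, 1622 in oocytes and 2625 in zygotes. These are 25470.5 spermatogonial reads but 42111 reads in oocytes and 80759 in zygotes. Scaled to all 4 classes this entry was at 965 RPM of that total in spermatogonia, 973 in oocytes and 1867 in zygotes, so its lead was lost under that scaling. The other 5 followed the same course, with 4708 to 7350 RPM in spermatogonia and 1876 to 2596 in the zygote. Over all 4 classes the spermatogonial part of the sum in these 6 entries lay between 37.1% and 43.2%. Read numbers were near-equal in mmur000681034 to mmur000681036, each with 7.56 reads in spermatozoa. Whether these entries count the same reads was not tested.

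The third kind was shared with primordial germ cells. The entry mmur001240259 had 3733 RPM in spermatogonia, 1982 in primordial germ cells, 7.02 in spermatozoa, 177 in oocytes and 163 in zygotes. Spermatogonia were 1.88-fold higher than primordial germ cells [1.80 to 1.97]. The entry mmur001060898 stood at 3075, 1146, 1.46, 7.09 and 6.32 RPM, and was 2.68-fold higher in spermatogonia than in primordial germ cells [2.54 to 2.84].

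**Figure D3:**
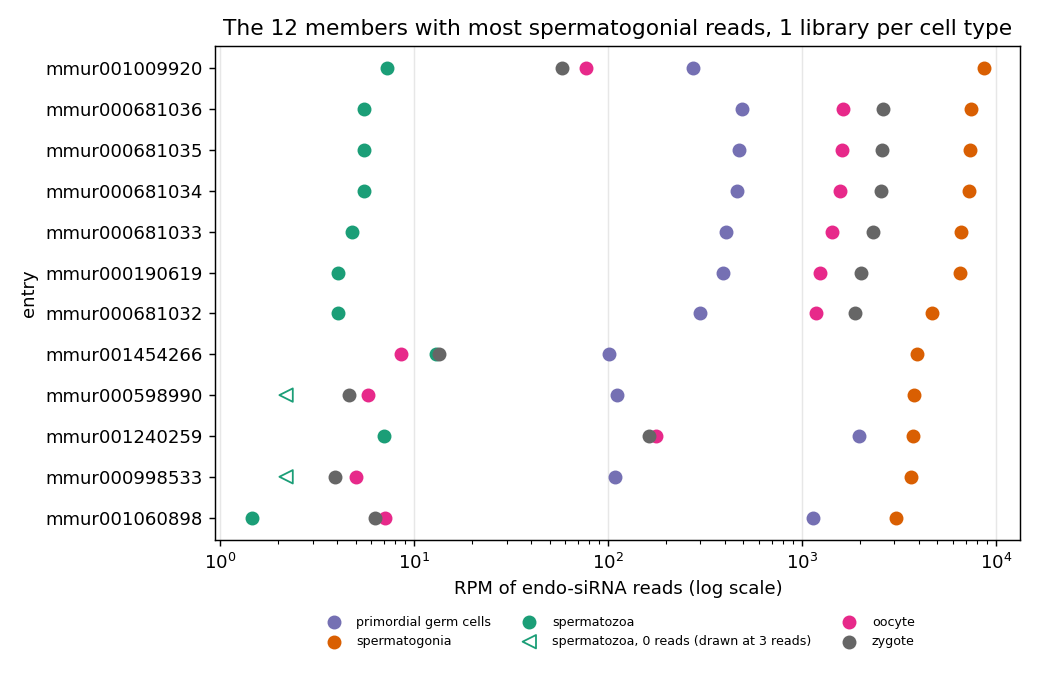
Level of the 12 members with most spermatogonial reads in each of the 5 libraries, in RPM of endo-siRNA reads on a log axis, with an open triangle where the library had 0 reads. All 12 have the spermatogonial point at the right, from 3075 to 8686 RPM, while the oocyte and zygote points range from 3.90 to 2625 RPM.

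Over all members the second place was shared among 3 values, spermatozoa included, which stood second in none of the 12 above. In 2814 members (56.4%) the mean of oocyte and zygote stood second, in 1585 (31.8%) primordial germ cells and in 559 (11.2%) spermatozoa. The other 27 (0.542%) had no read outside spermatogonia, and 46 of all 37713 entries had reads in 1 library only. By reads the order changed. Members with primordial germ cells second held 52.3% of the members' spermatogonial reads, those with oocyte and zygote second 36.8%, and those with spermatozoa second 10.6%. A second value of 20% or more of the sum was reached by oocyte and zygote in 1384 members, by primordial germ cells in 386 and by spermatozoa in 93.

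Spermatogonia were at least 4-fold above primordial germ cells in 3712 members (15.3% of all 37713 entries were), above spermatozoa in 4154 (23.3%) and above the mean of oocyte and zygote in 3437 (14.8%), with values under 3 reads set to 3 reads. All of these held together in 2725 members, and in 7.23% of all entries. The rule used the same values, so these counts only describe the members. The median ratio of spermatogonia over the members was 7.92 against primordial germ cells, 12.7 against spermatozoa and 8.23 against oocyte and zygote. Over all entries these medians were 0.616, 0.775 and 0.312.

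Levels of the members in spermatozoa were mostly low, as were those of entries in general. The median there was 0.292 RPM, against 0.161 over all 37713 entries. No read was found for 1834 members (36.8%), which at this depth allows up to 2.19 RPM each. The share of all entries without a read there was not counted, so 36.8% cannot be read as particular to the members. The highest were mmur000019789, with 2481 RPM in spermatogonia, 494 in primordial germ cells, 669 in spermatozoa, 3.25 in oocytes and 7.90 in zygotes, and its neighbour mmur000019788, with 1246, 265, 356, 1.53 and 1.84 RPM. Next came mmur001124212, at 2426, 154, 345, 3.94 and 2.71 RPM. In the egg-stage libraries these 3 were at 1.53 to 7.90 RPM, where the median member had 2.34 in oocytes and 2.48 in zygotes. Spermatogonia were 3.50-fold to 7.04-fold above spermatozoa.

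In primordial germ cells, the library before spermatogonia in development, the median of the members was 1.60 RPM, against 0.748 over all 37713 entries. There 1251 members (25.1%) had no read, with 3 reads worth 2.47 RPM. The like share over all entries was not counted here either. After mmur001240259, the highest there was mmur001075617, with 2970 RPM in spermatogonia, 1153 in primordial germ cells, 0.416 in spermatozoa, 501 in oocytes and 406 in zygotes. Its level in spermatozoa came from under 1 read, while the other 4 libraries were all at 406 RPM or more. Reads in all 5 libraries were found for 2475 members (49.6%), against 45.8% of all 37713 entries.

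The 27 members with reads in spermatogonia alone had from 100 to 360 reads, with a median of 141 against 111.9 over all members. Having no other reads, these 27 members could pass the minimum only with 100 or more. The highest of them, named after their values were seen, were mmur000687176 with 360 reads (105 RPM), mmur001454391 with 359 reads (105 RPM) and mmur000996166 with 274 reads (80.1 RPM). For mmur000687176, with 3 reads put in place of each 0, spermatogonia were 42.6-fold above primordial germ cells and 48.0-fold above spermatozoa. The ratio was 910 against the oocyte and 1078 against the zygote. The exact 95% intervals of the ratios to 0 reads began at 34.5, 38.8, 736 and 871 in the same order. The smaller values belong to the libraries with fewer endo-siRNA reads.

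Zygote and oocyte could be compared without circularity, since the rule used only their mean. With 100 or more reads over the pair, 3047 members were measured, with a median of 262 reads. Their median log2 ratio of zygote to oocyte was -0.002, against -0.015 over 32947 entries of any kind, and 90% of members lay between -0.75 and 1.00. Within 2-fold were 2828 members (92.8%, against 91.4% of all entries). At least 4-fold higher in the zygote were 17 members (0.558%, background 0.738%), and at least 4-fold lower 5 (0.164%, background 0.604%). By the smaller step of 2-fold, 156 members were higher (5.12%, background 5.42%) and 63 lower (2.07%, background 3.17%). The 4-fold shares, higher and then lower, were 0.849% and 0.774% in entries led by oocyte and zygote. They were 1.03% and 0.774% in those led by spermatozoa and 0.578% and 0.436% in those led by none. Entries led by primordial germ cells had 0.452% and 0.151%, so the low share towards the oocyte was not particular to the members. The members' shares towards the zygote are near the background and those towards the oocyte are below it, and with 1 library each no test of the difference can be made. Another scaling multiplies every ratio by 1 factor, which is 1.18 over all 4 classes (a log2 shift of 0.24) and 1.73 with the normalised column as deposited (0.79), so directions here hold relative to the endo-siRNA total. Across the 3047 members the Spearman correlation of the 2 libraries was 0.883, and 0.893 over all entries. These points share 2 libraries, and neighbouring entries may share reads.

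Single members nonetheless differed beyond counting error. Those farthest towards the zygote, named after their values were seen, were mmur000778103, with 14.2 oocyte and 123 zygote reads, and mmur001090831, mmur001090833 and mmur001072195. Reads of mmur001090831 and mmur001072195 were near-equal in every library, with 219 and 223 in spermatogonia and 239 and 246 in zygotes. All of the last 3 named had 3.10 reads in spermatozoa. Whether they count the same reads was not tested. The entry mmur001090833 had 480 reads in spermatogonia, 11.4 in primordial germ cells, 3.10 in spermatozoa, 44.9 in oocytes and 355 in zygotes, a 6.69-fold difference between the last 2 after scaling [4.87 to 9.30]. Farthest towards the oocyte was mmur000408142, with 104 oocyte and 26.2 zygote reads, 4.72-fold lower in the zygote [3.06 to 7.59]. The abundant entries mmur000681032 to mmur000681036 and mmur000190619 were 1.59-fold to 1.62-fold higher in the zygote, with intervals from 1.57 to 1.64. The 4 entries of the first kind of profile differed in direction under this scaling. In the zygote mmur001009920 was at 0.759 of its oocyte level [0.712 to 0.809] and mmur001454266 at 1.57 [1.33 to 1.86]. The intervals of mmur000598990 [0.627 to 1.005] and mmur000998533 [0.603 to 1.007] include 1. With the deposited column all 4 were higher in the zygote, with mmur001009920 at 1.31 [1.23 to 1.40], mmur001454266 at 2.72 [2.30 to 3.21], mmur000598990 at 1.37 [1.08 to 1.74] and mmur000998533 at 1.35 [1.04 to 1.74], and with TMM factors the last 2 were lower, at 0.768 [0.609 to 0.976] and 0.758 [0.585 to 0.977]. The entry mmur000408142 was lower in the zygote under all 5 scalings tried, and by the deposited column it was at 0.366 of its oocyte level [0.227 to 0.564].

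**Figure D4:**
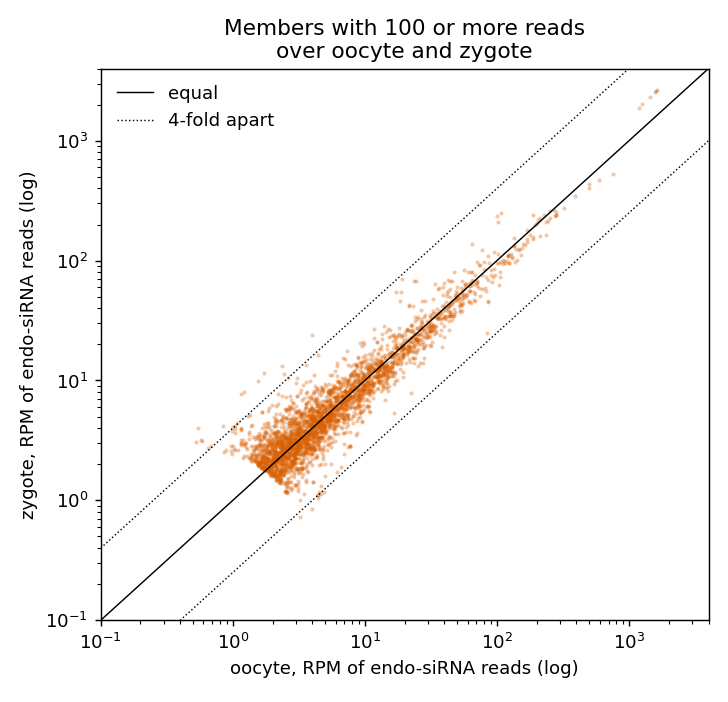
Zygote against oocyte level of the 3047 members with 100 or more reads over the pair, both in RPM of endo-siRNA reads on log axes, 1 point per member, values under 3 reads drawn at 3 reads. Most points follow the line of equal levels, and few lie near or beyond the dotted lines, where the ratio with 0.5 reads added to both counts 17 above and 5 below; the 6 highest points are mmur000190619 and mmur000681032 to mmur000681036.

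Members tended to carry neighbouring numbers. Of 1970 members followed by an entry with the next number that also met the read minimum, 1513 (76.8%) were followed by another member, where 11.3% of entries that follow any such entry are members. The share was 64.5% at a step of 2 numbers, 46.5% at 5, 36.8% at 10 and 26.0% at 100, and at 1000 and 10000 numbers it was 13.4% and 12.5%. The likeness was not limited to neighbours with near-equal reads: where the next entry differed over 2-fold in spermatogonial reads, 469 of 776 (60.4%) were still members. Likeness of the next number was seen for entries led by other libraries as well. It was 76.4% for primordial germ cells, 74.3% for spermatozoa and 87.1% for oocyte and zygote, which lead 3.68%, 4.30% and 49.6% of all entries. No source used here says what the order of the numbers stands for.

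**Figure D5:**
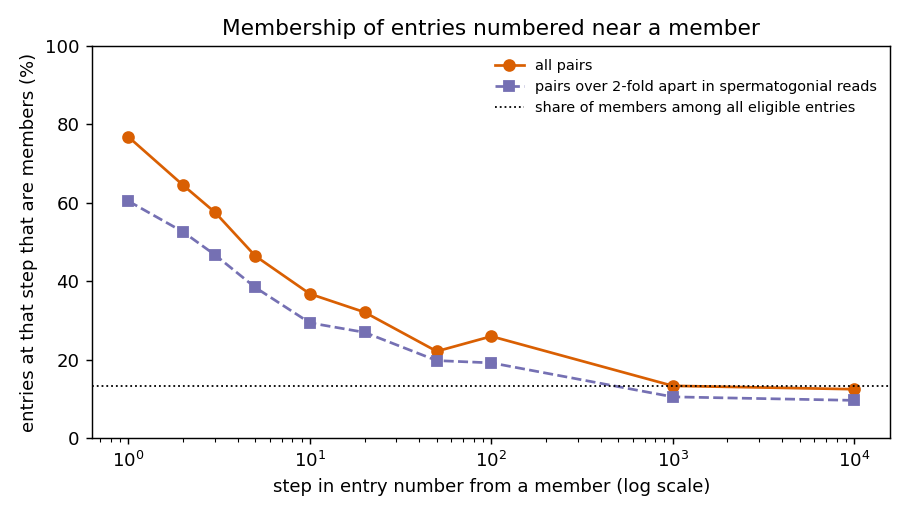
Percentage of entries that are members, among those numbered a given step after a member (log axis), for all pairs (circles) and for pairs over 2-fold apart in spermatogonial reads (squares). The circles fall from 76.8% at a step of 1 to 13.4% at 1000, where the dotted line marks the 13.2% of members among all entries.

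The numbers from 1454000 to 1454999, singled out after their values were seen, held most members of any stretch of 1000 numbers. There 76 of 109 entries (69.7%) were members, and they had 4.91% of the members' spermatogonial reads. Summed, these 76 stood at 24549 RPM in spermatogonia, 783 in primordial germ cells, 586 in spermatozoa, 52.5 in oocytes and 72.8 in zygotes. Their share of the sum in spermatogonia had a median of 96.4% and ran from 67.0% to 100%. The highest were mmur001454266, described above, and mmur001454318, with 2135, 99.1, 144, 1.60 and 3.23 RPM. The stretch with the next most, 1016000 to 1016999, had 52 members among 112 entries. Of the 613 such stretches with 20 or more entries, 8 were made up of members by 50% or more and 50 had none.

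Many read numbers were not whole, and some were equal between members. Values over 0.005 reads from a whole number made up 85.6% of the members' values in spermatogonia and 87.0% of those of all entries. In 116 members (2.33%) all 5 read numbers as deposited, rounded to 2 decimals, were equal to those of another member, against 2.76% for the like count over all entries. Runs of consecutive members, each within 10% of the spermatogonial reads of the one before it, held 833 members (16.7%), in 361 runs, where runs over all entries held 28.7%. Among entries with 100 or more spermatogonial reads it was 440 of 2741 members (16.1%), against 22.6% of all such entries. With each run counted once, 4513 members remained. Whether such members count the same reads was not tested.

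The longest run had 8 entries, mmur001314729 to mmur001314736, each with 263 to 270 reads in spermatogonia, 5.99 in primordial germ cells, 96.0 to 111 in oocytes and 112 to 128 in zygotes. Its last entry alone had 9.78 reads in spermatozoa, where the others had 0.17 or 0.44. The next, of 6 entries each, were mmur000353575 to mmur000353580, with 99.3 to 116 spermatogonial reads, and mmur001270534 to mmur001270539, with 79.5 to 84.2. In the first of these 2 the zygote reads went from 244 to 566, so the run was even in spermatogonia but not in the zygote.

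Like values also occurred far apart in the numbering. Among the 299 members with 1000 or more spermatogonial reads, 25 had another member over 1000 numbers away whose reads lay within 10% or 5 reads in every library. The like count over all entries was not made, so the 25 cannot be read as particular to the members. One such pair was mmur000598994 and mmur000998539, with 3470 and 3371 reads in spermatogonia, 299 and 290.0 in primordial germ cells, 182 and 169 in the oocyte and 199 and 183 in the zygote. This pair was named after its values were seen. They lie close in number to mmur000598990 and mmur000998533, which did not meet that tolerance. Those entries had 151 and 130 reads in the oocyte and 142 and 120 in the zygote.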

How the data were processed

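Small RNA of 18 to 32 nucleotides was sequenced from total RNA, per the labels' protocols. The submitters' processing notes list DESeq, Bowtie 0.12.7 and mm10 but not what each was used for. How multiply matching reads were assigned, and to which annotation, is not given in the sources used here. The deposited read columns are expected counts, many with a fraction, and absent entries were taken as 0. The deposited normalised column is a signal, the reads times 1 factor per library (0.672 in spermatogonia, 1.37 in the zygote), and was used only as an alternative. Reads were scaled to the library's endo-siRNA total. Endo-siRNA reads ranged from 1216678 to 30760735 per library, so a count of 0 allows from 0.0975 to 2.47 RPM (3 reads). Intervals are exact at 95%, on rounded reads: Clopper-Pearson for shares, and for ratios that of 2 Poisson counts conditional on their sum. PCR copies are not independent molecules, so they cover counting error only. Log2 ratios of zygote to oocyte used a pseudocount of 0.5 reads. With 1 library per group no test was made.

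The members and lists were chosen with earlier results of these data known. Named by rule were the 12 members highest in spermatogonia, the 3 highest in each other library, 3 entries on each side of the threshold and the 3 longest runs. The rule's 3 chromosomes could not be named, and entries were not matched to other RNA classes, since the names give no position. Alternatives used edgeR 4.0.16 and DESeq2 1.42.0 on rounded reads for scaling only. The calculations (Python 3.11.15, scipy 1.17.1) were tested on simulated data.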

Additional observations from a re-analysis of the deposited data

Results flagged for a closer look

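Entries with chrUn in their names were left out by the rule and entered no comparison. Of 281 such entries with 100 or more reads, 22 (7.83%) also had 60% or more of the sum in spermatogonia, and these 22 held 4745 reads, 0.138% of the spermatogonial endo-siRNA reads.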

How the results depend on the processing

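The count of 4985 spermatogonia-led entries and their 49.98% of spermatogonial endo-siRNA reads depended on scaling and thresholds. Scaled to all 4 classes they were 2745 and 36.5%, and with the normalised column as deposited (added after seeing the data) 1629 and 26.8%. A minimum of 20 reads gave 11539 and 54.3%, one of 500 reads 1601 and 40.3%, and a share of 75% or more 2845 and 33.3%. The count stayed within 1.5 times of 4985 under the next 5 settings, where the reads were 49.7% (TMM factors), 41.7% (DESeq2 size factors), 47.0% (totals without the 5 most abundant entries of any library), 58.3% (a share of 50% or more) and 42.6% (oocyte and zygote as 2 values). With chrUn names kept, added later, they were 50.1%. The count with no read outside spermatogonia, 27, became 293 at a minimum of 20 reads and 0 at 500, and was 27 or 28 otherwise. Members in runs, 833, were 480 within 2% and 1214 within 25%. The median log2 zygote to oocyte ratio of members was 0.24 over all 4 classes, -0.045 with TMM, 0.018 with DESeq2 and 0.79 with the deposited column, all added later; each factor moves all entries alike. Members at least 2-fold higher and lower in the zygote, 156 and 63, were 272 and 32 over all 4 classes and 972 and 10 with the deposited column (8.93% and 1.05%, then 31.9% and 0.328%, against 9.18% and 1.94%, then 31.2% and 0.771% of all entries). Depth limits the spermatozoal and primordial germ cell values most. No paired analysis was possible because there is 1 library per cell type.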
